A study of Mus musculus with 18 samples.

Results

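Whole spinal cords of 10-day-old mice (P10) labelled homozygous, the SMA group, were compared with cords of heterozygous controls of the SMNΔ7 line. The comparison covers 8833 genes, chosen from 58570 gene loci as those with a single gene symbol, FPKM of 5 or more in at least 1 of the P10 groups and an accepted fit in both. FPKM counts fragments relative to transcript length and sequencing depth, so levels of different genes can be roughly compared on it. The comparison is less sure for short genes with few fragments and for overlapping loci. The gene nearest the threshold inside it reached FPKM 5.00198 and the nearest outside it 4.99897.

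Spinal muscular atrophy (SMA) is a motor neuron disease of infancy caused by too little SMN, a protein that assembles the RNA and protein particles of the spliceosome. Homozygous SMNΔ7 pups lack mouse Smn1 and live on human SMN transgenes that yield little full-length protein, and heterozygous pups keep a working Smn1 copy. The human transgenes were not analysed here, and the labels give neither the sex nor the litter of the pups. The labels place 3 libraries in each of 6 groups (homozygous and heterozygous cords at P2, P6 and P10), prepared from total RNA after removal of ribosomal RNA with a kit that keeps strand. The authors combined the libraries into 1 value per gene and group, so no value below has a standard deviation or a number of replicates, and nothing says whether the libraries came from separate animals.

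Smn1, on the plus strand at chr13:100124852-100137690 of GRCm38, was checked first. It did not separate the P10 groups. Its FPKM was 3.54 in control cords (model interval 0 to 8.12) and 2.82 in the group labelled SMA (interval 0 to 6.08), or 79.8% of control, from 25.9 and 20.2 estimated fragments. At the younger ages the labels and the gene matched: Smn1 was at FPKM 2.70 in control and 0.0210 in SMA cords at P2. At P6 it was at 4.46 in control and listed at 0 in SMA cords. The P10 group is therefore called the group labelled SMA throughout, and every direction below is that of the label. Genes of the Y chromosome also differed between the P10 groups. Ddx3y, a Y-linked RNA helicase, had FPKM 13.1 in control and 6.63 in the group labelled SMA, and Uty, a Y-linked histone demethylase homologue, had 13.4 and 7.83. At P2 Ddx3y was at 17.9 in control and 6.82 in SMA cords, and at P6 the order was reversed, at 4.92 and 14.9. The part of Smn1 status or of the sex of the pups in the differences below was not tested.

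In the early postnatal weeks of the mouse, oligodendrocytes wrap spinal axons in myelin, a membrane built from a few very abundant proteins, galactolipids and cholesterol. Over the same days neurons stop extending growth cones, exchange fetal forms of channels and receptors for adult ones and add neurofilaments as their axons thicken. Astrocytes mature and vessels and meninges grow alongside. Cells of roots and meninges, Schwann cells and fibroblasts among them, come with a dissected cord in varying amounts.

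Most genes had nearly the same value in both groups. The median difference, log2((SMA + 1)/(control + 1)) in FPKM, was 0.01 over the 8833 genes, and the 5th and 95th percentiles of the 7831 protein-coding ones were -0.44 and 0.36. By a descriptive rule of 1.5-fold on this scale, 168 genes (1.9%) were higher and 244 (2.76%) lower in the group labelled SMA. Among protein-coding genes 80 (1.02%) were at least 1.5-fold higher and 156 (1.99%) lower, and a 2-fold rule left 4 and 7. Small RNAs made up much of the rest: 122 of 187 small RNA genes passed 1.5-fold, and 89 of them were listed at 0 in 1 group. A higher value, of any size, was found for 51.3% of all genes and a lower one for 48.7%; among protein-coding genes the shares were 49.8% and 50.2%. Gene groups below are read against these shares.

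**Figure D1:**
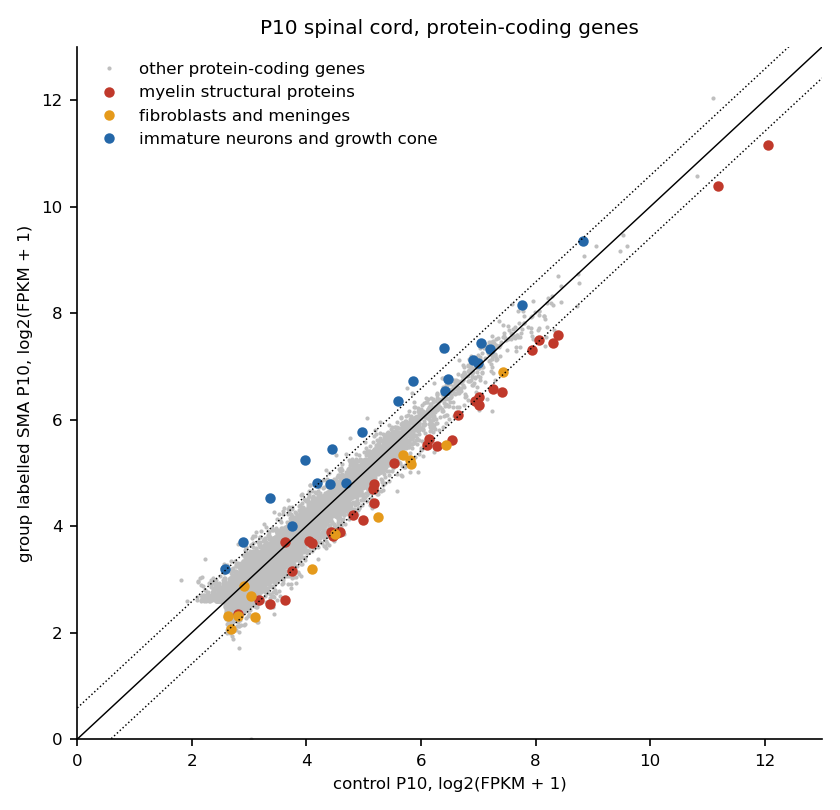
Each point is a protein-coding gene, with log2(FPKM + 1) in control P10 cords on the horizontal axis and in the group labelled SMA on the vertical axis. The solid line marks equal values and the dotted lines 1.5-fold. Red points (myelin structural proteins) and orange points (fibroblasts and meninges) lie mostly under the solid line, 33 of 34 and 14 of 14 of them, and all 21 blue points (immature neurons and growth cone) lie above it.

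A test was possible only against the authors' model interval. A two-sided z test of the FPKM ratio called 8 of 20157 loci (0.0397%) at an adjusted p under 0.05 (Benjamini-Hochberg), 5 higher and 3 lower, with 43 at an unadjusted p under 0.05. Of the 8 loci, 5 were among the 8833 genes, and none of those was protein-coding. The type of the other called loci was not examined. Over protein-coding genes alone the test called 0. The intervals were wide, with the upper bound a median of 56.2% above the FPKM in the group labelled SMA and 55.6% above it in control, and the z values were narrow, with a robust standard deviation of 0.294. Except for Rnu12 and Dancr, the P10 differences named below therefore describe 2 group values and did not pass this test. In these bulk cords fewer cells of a type and less RNA per cell cannot be told apart.

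Rnu12 encodes the U12 small nuclear RNA, which pairs with the branch site of the rare introns removed by the minor spliceosome, a machine whose particles SMN assembles. Its 151 bases lie at chr15:83149644-83149794 on the plus strand of GRCm38 (GENCODE M21 transcripts). They are shown because this is the called gene nearest to SMN's known role. The capitals mark a stretch that starts at base 20, within the region that pairs with the branch site.
Rnu12: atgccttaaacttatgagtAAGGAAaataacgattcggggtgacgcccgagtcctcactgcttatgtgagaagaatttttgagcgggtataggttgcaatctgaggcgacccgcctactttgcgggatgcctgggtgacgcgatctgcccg

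Rnu12 fell to 15.7% of control. Its FPKM was 49.7 in control (interval 36.0 to 63.4) and 7.79 in the group labelled SMA (3.90 to 11.7), a log2 ratio of -2.67 ± 0.42 (SE from the authors' interval, z test, adjusted p = 5.29e-07). It was also the lower value in SMA cords at P2 (37.8 against 21.2) and P6 (36.3 against 23.8). The P10 call rests on 5.81 and 0.850 estimated fragments, and with the variance of the estimated counts in place of the interval none of the 8 loci was called. Of the other 5 measured genes of the minor spliceosome list none passed 1.5-fold: Zcrb1, a protein of the U11/U12 particle, had FPKM 33.1 in control and 31.4 in the group labelled SMA, and Snrnp48 had 9.77 and 9.47. Rnu11, the listed gene of the U11 RNA, was at 0 in both P10 groups and in every other group except control at P6 (17.2). It therefore could not be compared.

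Dancr, a long noncoding RNA at chr5:74093060-74095406 on the plus strand that hosts a small nucleolar RNA, was the other nameable call. It fell from FPKM 160 (interval 149 to 171) to 45.7 (37.7 to 53.7), a log2 ratio of -1.81 ± 0.14 (SE from the authors' interval, z test, adjusted p = 1.32e-35). The estimated fragments went the other way, 25.7 in control and 28.7 in the group labelled SMA, a difference of 0.15 on the log2 scale. The locus overlaps Snora26 and an antisense gene, and reads of overlapping genes may be split by the authors' counting, so the value is uncertain. At P2 the order of the Dancr FPKM was the reverse, 105 in control and 384 in SMA cords. At P6 it was 97.2 and 50.4. The intervals of 84 genes (0.951%) did not overlap between the groups, 42 in each direction. None was protein-coding, and 77 had a group at 0. Rnu12, Dancr and the vault RNA gene Vaultrc5 (FPKM 6.43 in control and 14.0 in the group labelled SMA) were those with a nameable symbol.

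The rest of the SMN pathway lay near control. The list of the SMN complex and its partners holds 15 genes, of which 10 had a locus with an unshared single symbol. Of those, 5 were abundant enough: Gemin5 and Strap of the complex, and the partners Prmt5, Phax and Clns1a. A higher value was found in 3 and a lower one in 2, and the median difference was 0.12. Gemin5, which recognizes small nuclear RNAs for the complex, had FPKM 3.88 in control and 5.13 in the group labelled SMA. The Sm and LSm proteins that ring spliceosomal RNAs had a median of 0.12 over 17 genes, with none past 1.5-fold. The anaphase-promoting complex, a ubiquitin ligase named in the title of the study, had a median of 0.03 over 16 genes. Its extremes were Anapc11 (FPKM 7.54 and 6.33) and Anapc4 (26.4 and 29.5).

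Genes of the myelin sheath had lower values almost without exception. Of 40 listed structural genes 34 were measured, 33 with a lower value and 22 lower by at least 1.5-fold, against 2.76% of all genes. Their median difference was -0.62. Cntn2, an adhesion protein of the juxtaparanode, was the 1 with a higher value (0.08). Summed over the list, FPKM was 9251 in control and 5283 in the group labelled SMA.

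The promoters of 3 of these genes are shown because they hold the letters CTGGCAC, a core motif of the oligodendrocyte factor MYRF. The windows run from 250 bases before to 50 after the start (RefSeq, GRCm38.p6), 5′ to 3′ on the strand of the gene, with the motif in capitals. They are Mag at chr7:30914814-30915113 (minus strand), Nipal4 at chr11:46166310-46166609 (minus strand) and Cnp at chr11:100574689-100574988 (plus strand).
Mag: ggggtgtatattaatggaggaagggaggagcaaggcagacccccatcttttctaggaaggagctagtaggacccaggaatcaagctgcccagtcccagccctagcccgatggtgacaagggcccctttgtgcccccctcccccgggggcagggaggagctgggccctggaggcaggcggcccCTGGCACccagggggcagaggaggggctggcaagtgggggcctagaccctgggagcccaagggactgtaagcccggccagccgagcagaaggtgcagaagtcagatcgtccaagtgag
Nipal4: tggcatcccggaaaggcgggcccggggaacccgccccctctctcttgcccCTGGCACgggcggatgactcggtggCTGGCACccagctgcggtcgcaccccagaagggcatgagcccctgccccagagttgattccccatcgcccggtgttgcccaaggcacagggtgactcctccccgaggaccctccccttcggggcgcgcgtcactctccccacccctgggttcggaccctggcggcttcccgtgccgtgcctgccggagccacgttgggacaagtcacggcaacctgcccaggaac
Cnp: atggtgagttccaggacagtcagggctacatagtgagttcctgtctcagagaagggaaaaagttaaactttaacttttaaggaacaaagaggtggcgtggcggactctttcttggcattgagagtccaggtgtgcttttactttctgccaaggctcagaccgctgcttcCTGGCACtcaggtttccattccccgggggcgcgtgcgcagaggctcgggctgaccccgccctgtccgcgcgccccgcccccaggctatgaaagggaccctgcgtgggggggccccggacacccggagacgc

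On either strand, CTGGCAC was found in 3 of the 24 myelin genes with a sequence (12.5%) and in 5.73% of all genes with one. Mag encodes myelin-associated glycoprotein of the innermost wrap. Its FPKM in control cords was 11.1, 92.4 and 315 at P2, P6 and P10. In SMA-labelled cords it was 145, 99.6 and 172, a difference of -0.87 at P10 and of 3.59 at P2. Cnp, a cytoplasmic myelin enzyme, had FPKM 336 in control and 192 in the group labelled SMA at P10 (-0.80). Nipal4, a magnesium transporter homologue, had 9.31 and 4.78 (-0.83).

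Other proteins of the sheath had differences of like size. Mbp, the myelin basic protein of compact myelin, had FPKM 4281 in control and 2294 in the group labelled SMA (-0.90), with intervals of 0 to 9866 and 0 to 5164. Mog, on the outermost surface of the sheath, had 92.6 and 47.8 (-0.94). The group labelled SMA thus held 53.6% of the control level of Mbp and 51.6% of that of Mog.

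Enzymes that make myelin lipids also had lower values, by a smaller median. Of 25 measured genes 22 had a lower value and 7 were at least 1.5-fold lower, with a median of -0.31. Ugt8a, which makes galactosylceramide, had FPKM 244 in control and 157 in the group labelled SMA. Scd1, the fatty acid desaturase, had 73.9 and 40.9 (-0.84), and Elovl1, which lengthens very long fatty acids, 34.2 and 19.3 (-0.80). Sgms1, a sphingomyelin synthase, lay at the other end at 0.25.

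Cholesterol synthesis genes were lower in small steps. A lower value was found in 20 of 21 genes, with a median of -0.37, but only 2 passed 1.5-fold. Mvd, which makes isopentenyl diphosphate, had FPKM 17.9 in control and 12.1 in the group labelled SMA (-0.53), and Cyp51, a sterol demethylase, 72.6 and 53.7 (-0.43). The promoter of Hmgcs1, an early enzyme of the pathway, is shown because the sterol response motif TCACNCCAC and the CCAAT box, which factor NF-Y binds, both occur in it. It lies at chr13:119690101-119690400 on the plus strand (RefSeq, GRCm38.p6), with both motifs in capitals; CCAAT is on the other strand at all 4 places and reads ATTGG.
Hmgcs1: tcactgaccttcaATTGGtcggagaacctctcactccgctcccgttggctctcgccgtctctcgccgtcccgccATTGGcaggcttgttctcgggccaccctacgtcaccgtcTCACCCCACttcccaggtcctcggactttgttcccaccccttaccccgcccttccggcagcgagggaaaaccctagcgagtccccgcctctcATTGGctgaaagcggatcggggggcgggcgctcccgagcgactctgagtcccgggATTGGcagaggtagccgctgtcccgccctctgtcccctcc

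CCAAT was present on either strand in 14 of 15 cholesterol genes with a sequence (93.3%), in 13 of 24 myelin genes (54.2%) and in 41.1% of all genes. It was also present in 7 of 10 genes of immature neurons (70%), a list with higher values at P10. TCACNCCAC was present in 1 of the 15, Hmgcs1, in 1 of the 24 myelin genes, in 1 of the 10 genes of immature neurons and in 1.44% of all genes. Hmgcs1 itself had FPKM 131, 149 and 294 in control cords at P2, P6 and P10, and 184, 150 and 214 in SMA-labelled cords. Its P10 difference was -0.46.

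Genes of oligodendrocyte precursors and astrocytes also had lower values. Of 17 precursor genes 13 had a lower value and 3 were at least 1.5-fold lower, with a median of -0.45. The remaining 4, Lhfpl3, Zfp488, Vcan and Ptprz1, were nearly equal, with differences of 0.01 to 0.03. Sox10, the lineage factor of oligodendrocytes and Schwann cells, had FPKM 22.0 in control and 13.3 in the group labelled SMA. Ptprz1, a phosphatase of precursors and astrocytes, had 70.8 and 72.5. Astrocyte genes had a lower value in 21 of 23, with a median of -0.33. Gfap, the intermediate filament of astrocytes, had FPKM 318 and 205 (-0.63), and Kcnj10, their potassium channel, had 47.1 and 24.3, a log2 ratio of -0.95 ± 0.46 (SE from the authors' interval, z test, unadjusted p = 0.0390). Fabp7, a fatty acid binding protein of radial glia and young astrocytes, ran against the list at 191 and 288 (0.59). Microglial genes were split, 7 higher and 5 lower of 12, with a median of 0.02 and none past 1.5-fold.

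**Figure D2:**
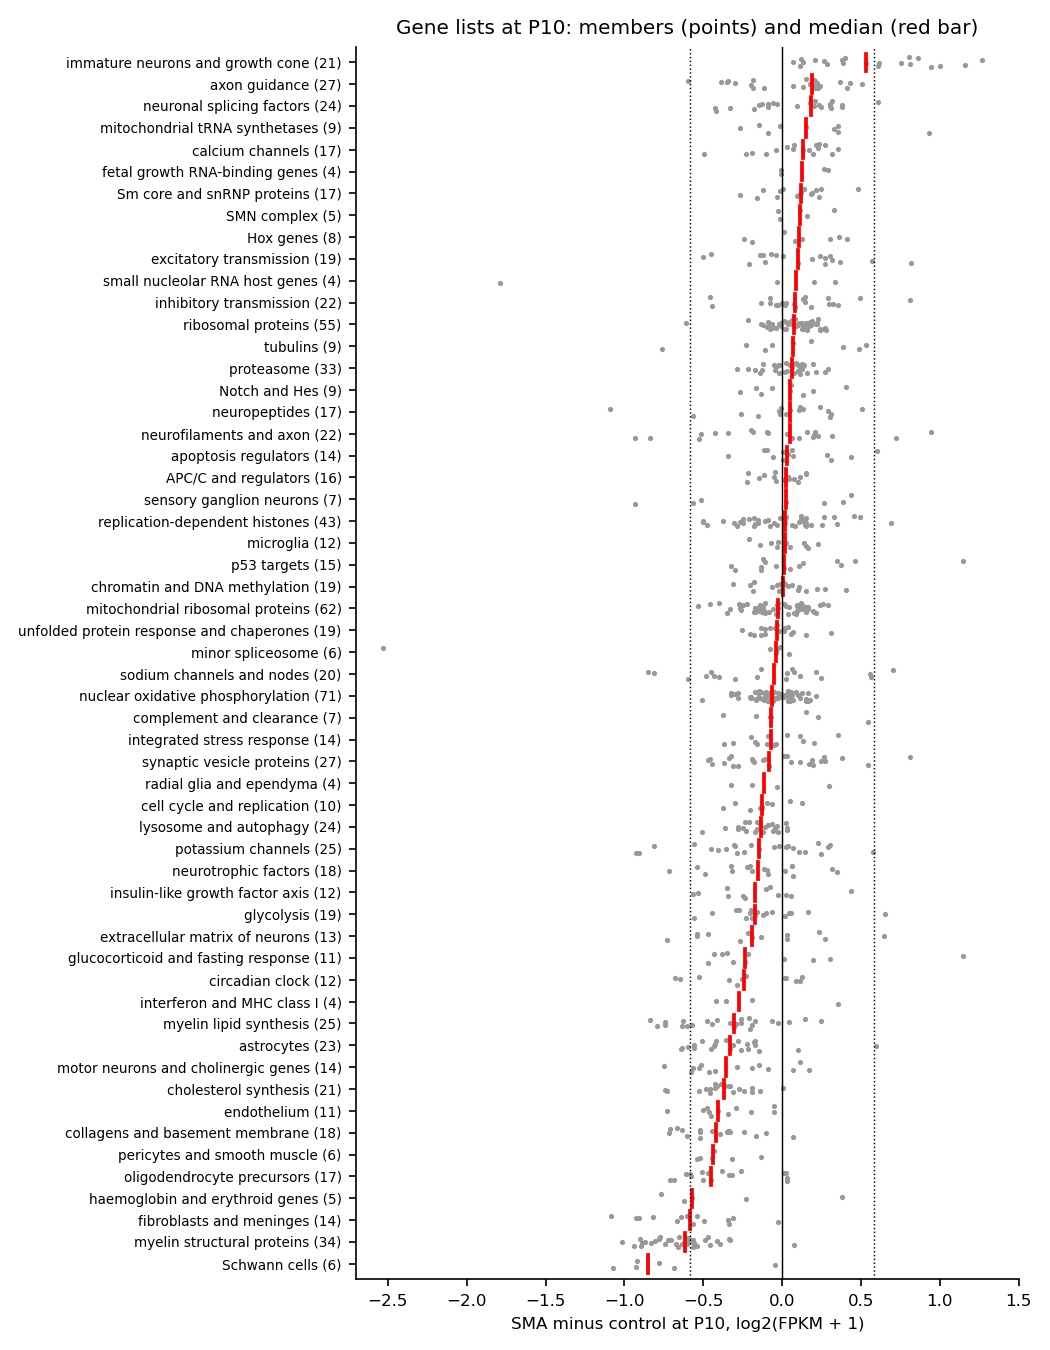
Gene groups are ordered by their median log2((SMA + 1)/(control + 1)) at P10, with points for measured genes (number in parentheses), red bars for medians and dotted lines at 1.5-fold; lists with under 4 measured genes are left out. Schwann cell (-0.85), myelin (-0.62) and fibroblast and meninges genes (-0.59) lie at the lower end and immature neuron genes (0.53) at the upper end.

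Tissue around and between the neural cells also had lower values. All 14 measured genes of fibroblasts and meninges were lower, 7 by at least 1.5-fold, with a median of -0.59, and their sum was FPKM 531 in control and 338 in the group labelled SMA. Col1a1, fibrillar collagen, had 37.1 and 17.0 (-1.09), Dcn, a collagen-binding proteoglycan, 16.2 and 8.14 (-0.91), and Apod, a lipid carrier of fibroblasts and glia, 86.1 and 44.8 (-0.93). Collagens and basement membrane genes were lower in 17 of 18, with a median of -0.42.

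Schwann cells, which myelinate the roots, were read from 6 of 15 listed genes. All 6 had a lower value and 5 were at least 1.5-fold lower, with a median of -0.85. Pmp22, a protein of compact peripheral myelin, had FPKM 23.2, 62.4 and 93.4 in control cords at P2, P6 and P10, and 29.7, 76.6 and 48.8 in SMA-labelled cords (-0.92 at P10). Prx, a scaffold of peripheral myelin, had 7.77 and 3.61 at P10. Sox10 stands in this list too and is shared with oligodendrocytes. Of the genes under the level of 5, Egr2, the factor of myelinating Schwann cells, was at 0.987 in control and 0.661 in the group labelled SMA, while Sostdc1 was at 1.48 and 2.04 and Foxd3 at 0.518 and 0.692. None of the list was at 0 in both groups. How much root tissue moves with the other differences was not tested.

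Genes of vessels and blood also had lower values. All 11 endothelial genes had a lower value, with a median of -0.41 and 1 past 1.5-fold, Ly6c1, a surface antigen of brain vessels (FPKM 9.68 and 5.45). Cldn5, the tight junction protein of the blood-brain barrier, had 25.9 and 18.5. Of 16 listed genes of pericytes and smooth muscle 6 were measured, and all 6 were lower, with a median of -0.44. Under the level of 5, Acta2 (2.79 in control and 3.18 in the group labelled SMA), Higd1b (1.89 and 2.59) and Cnn1 (0.209 and 0.293) were higher. The other listed genes under that level were lower. Haemoglobin transcripts, which come with blood cells, were lower: Hba-a1 had FPKM 285 and 167 and Hbb-bs 419 and 281, and the erythroid list summed to 782 in control and 535 in the group labelled SMA. The part of blood content in other differences was not tested. Muscle genes were low in both groups, with Acta1, skeletal actin, at 0.686 and 0.870.

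Genes of immature neurons and growth cones had higher values. All 21 measured genes of the 30 listed were higher, 10 by at least 1.5-fold, against 1.9% of all genes, and the median was 0.53 with a range of 0.07 to 1.27. Their summed FPKM was 1715 in control and 2360 in the group labelled SMA. Cxadr, an adhesion protein of developing neurons at chr16:78301489-78359774, had the greatest difference with the pseudocount among the protein-coding genes compared; on the plain log2 ratio Cdkn1a and Retnla were above it. Its FPKM in control cords was 77.6, 50.0 and 14.7 at P2, P6 and P10, and in SMA-labelled cords 55.0, 49.4 and 36.8, with a P10 log2 ratio of 1.33 ± 0.49 (SE from the authors' interval, z test, unadjusted p = 0.00700, adjusted p = 0.999997).

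Dcx, the microtubule protein of migrating neurons, showed the same order. It had FPKM 46.0, 23.5 and 9.26 in control cords and 35.6, 19.8 and 21.9 in SMA-labelled cords at P2, P6 and P10. Gap43, a growth cone protein, had 83.3 and 161 at P10 (0.95), and Dpysl3, which links semaphorin signals to the cytoskeleton, 57.0 and 104 (0.86). Hn1, a small protein abundant in young brain, had 20.7 and 42.5 (1.00). Among tubulins the split was by isotype: Tuba1a, the alpha tubulin of growing neurons, had 454 and 656, Tubb3 had 132 and 173, and Tubb4a, a beta tubulin of myelinating tracts, had 141 and 82.4 (-0.76).

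Other lists of neuronal genes did not shift to 1 side. Lists of inhibitory transmission (median 0.08 over 22 genes), excitatory transmission (0.10 over 19), synaptic vesicles (-0.08 over 27), axons and neurofilaments (0.05 over 22) and sodium channels and nodes (-0.05 over 20) lay near the overall median. The axon list mixes growth genes such as Gap43 (0.95), which the immature neuron list also holds, with neurofilament genes such as Nefh (-0.93). With 12 genes higher and 10 lower, its median near 0 describes a mixed list and not mature neurons alone. Within these lists, pairs of related genes parted. Glra2, the fetal glycine receptor subunit, had FPKM 11.9 in control and 21.6 in the group labelled SMA (0.81), and Glra1, the adult subunit, 32.5 and 23.6 (-0.44).

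Sodium channel subunits parted likewise. Scn3b had FPKM 15.8 in control and 26.3 in the group labelled SMA (0.70), while Scn4b, an auxiliary subunit of fast-firing neurons, had 10.7 and 5.46, a log2 ratio of -0.96 ± 0.46 (SE from the authors' interval, z test, unadjusted p = 0.0375). Neurofilaments, the struts of large axons, had lower values: Nefh, the heavy chain, 61.0 and 31.5 (-0.93), Nefm, the medium chain, 128 and 71.3 (-0.84), and Nefl, the light chain, 246 and 183 (-0.43). Kcna1, a potassium channel of the juxtaparanode, had 17.4 and 9.46. Tac2, the neurokinin B precursor, had 9.86 and 4.11 (-1.09).

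**Figure D3:**
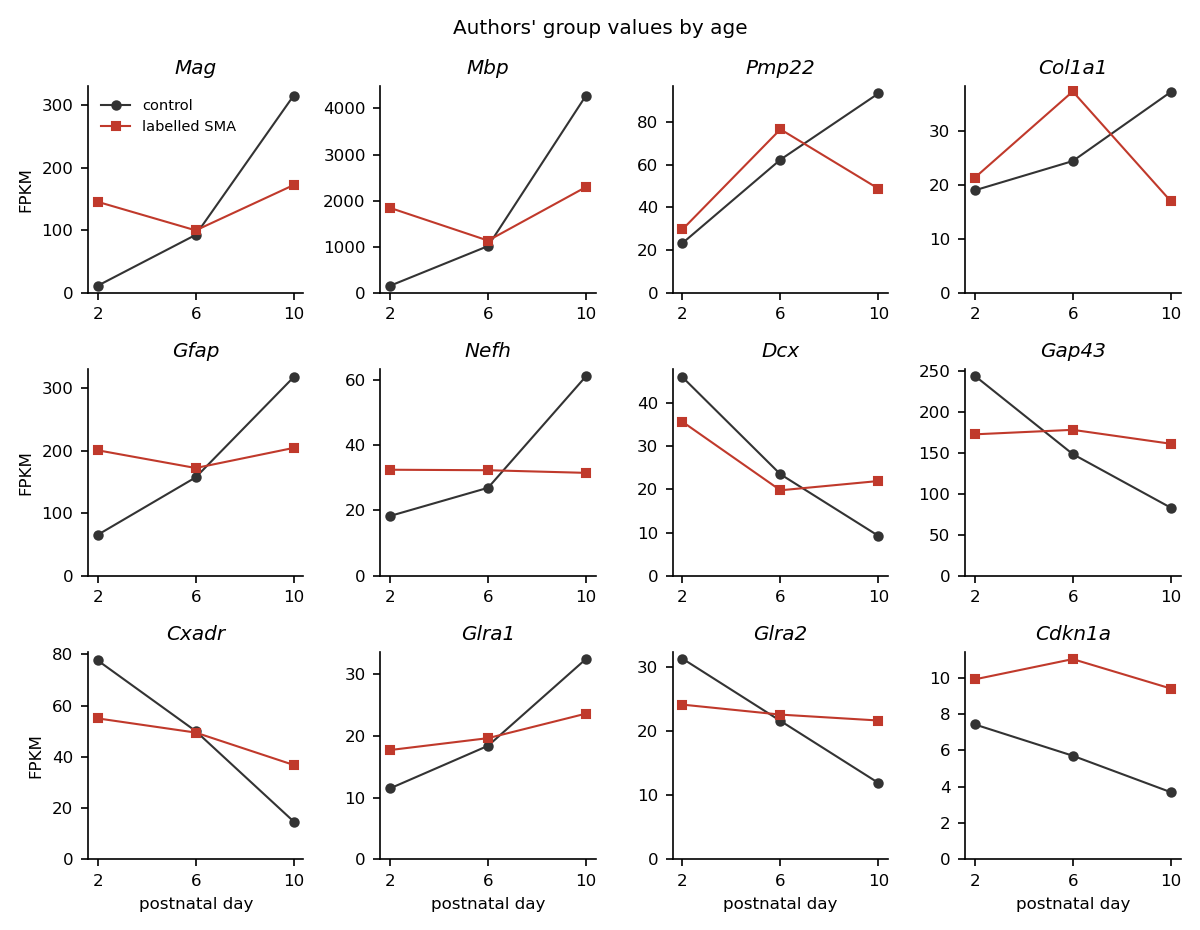
FPKM of 12 genes by postnatal day in control cords (black circles) and SMA-labelled cords (red squares); each point is the authors' value for a group, with no error drawn, and each panel has its own scale from 0. Mag, Mbp, Gfap and Nefh are higher in control at P10 and lower in control at P2, and Dcx, Gap43, Cxadr and Glra2 the reverse, while Cdkn1a is higher in SMA-labelled cords at all 3 ages.

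Motor neuron genes had lower values in 11 of 14 measured genes, with a median of -0.36. Only Ahnak2, a scaffold protein, passed 1.5-fold (FPKM 5.46 and 2.84), and it reached the FPKM threshold of 5 in control alone. Slc18a3, the vesicular acetylcholine transporter, had 8.66 and 5.46 (-0.58), Chodl, a marker of fast motor neurons, 13.6 and 9.16 (-0.53) and Calca, the precursor of the peptide CGRP, 16.1 and 10.6 (-0.56). Chat, the enzyme that makes acetylcholine, was under the threshold, at 3.67 in control and 2.32 in the group labelled SMA. Sv2b, a synaptic vesicle protein, had 21.4 and 23.2 (0.11), Gfra1, a receptor for GDNF, 19.3 and 20.3 (0.07), and Uts2, a peptide under the threshold, 3.60 and 4.48. At the younger ages the list had a median of -0.10 at P2 and 0.02 at P6.

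Growth arrest and stress genes above the level filter were mixed at P10, apart from Cdkn1a. Cdkn1a encodes p21, a cell cycle inhibitor induced by p53, and lies at chr17:29090976-29100727. Its FPKM was 7.43, 5.70 and 3.69 in control cords at P2, P6 and P10, and 9.92, 11.0 and 9.41 in SMA-labelled cords. The P10 log2 ratio was 1.35 ± 0.55 (SE from the authors' interval, z test, unadjusted p = 0.0136, adjusted p = 0.999997). The p53 list around it had a median of 0.01 at P10, with 8 of 15 higher. Among these were Ccng1, cyclin G1, at 16.7 and 22.0, and Plk2, a stress-induced kinase, at 8.62 and 12.3. At P2 14 of the 15 had a higher value in SMA cords, and at P6 13 did. Under the level of 5 most listed genes also had a higher value at P10, such as Fas (0.374 and 0.909) and Bbc3 (2.35 and 3.12). Tnfrsf10b (0.570 and 0.333) and Gdf15 (0.0259 and 0) went the other way. Apoptosis regulators had 10 of 14 higher and a median of 0.03, with Apaf1, the scaffold of the apoptosome, at 4.99 and 7.11. Unfolded protein (-0.03) and integrated stress (-0.07) lists had medians near 0.

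Metabolic and protein synthesis genes differed little. Oxidative phosphorylation had a median of -0.07 with 46 of 71 lower, and cytosolic ribosomal proteins 0.07 with 39 of 55 higher; of these only Rps16 passed 1.5-fold (FPKM 53.8 and 35.0). Lysosome and autophagy genes were lower in 21 of 24 with a median of -0.13 and none past 1.5-fold. Glycolysis had a median of -0.17, with Slc16a1, the lactate transporter of glia and vessels, at 39.2 and 26.2, and Pfkp, a phosphofructokinase, at 56.3 and 89.2. Lars2, a mitochondrial leucyl-tRNA synthetase, had 2196 and 4189, but its interval in the group labelled SMA ran from 0 to 65073. Circadian clock genes were split, 5 higher and 7 lower of 12, with a median of -0.24: Dbp had 6.93 and 3.94, Per3 9.97 and 6.01, and Clock 17.9 and 19.6.

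The genes annotated as protein-coding at either extreme came from several of these groups. Hn1 did not match the annotation by symbol and is not ranked among them. The 12 with the greatest differences held Cxadr, Dcx, Gap43, Dpysl3, Cdkn1a and Lars2 and 6 more. Nnat, a small membrane protein of developing brain, had FPKM 81.8 in control and 156 in the group labelled SMA, and Rac3, a GTPase of growing neurites, 26.0 and 49.2. Retnla, a secreted protein of the resistin family, had 2.52 and 6.89, Rfc3, a replication factor subunit, 3.29 and 6.85, and Dynlt1a, a dynein light chain, 5.99 and 11.6. Fam124a had 3.43 and 7.19. Cdkn1a, Retnla, Rfc3 and Fam124a reached the FPKM threshold of 5 in the group labelled SMA alone. Among the 12 with the smallest differences were Apod, Col1a1, Kcnj10, Mog, Nefh, Pmp22, Prx and Tac2, with Mfap4, a protein of elastic fibres (9.65 and 4.60), and Tmem125 (7.94 and 3.62). Prx, Tac2, Mfap4 and Tmem125 reached the threshold in control alone. A gene under the threshold in either group is kept only if its other value is high, so the filter favours large differences in such genes. Of the 295 named genes, 261 reached FPKM 5 in each group.

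**Figure D4:**
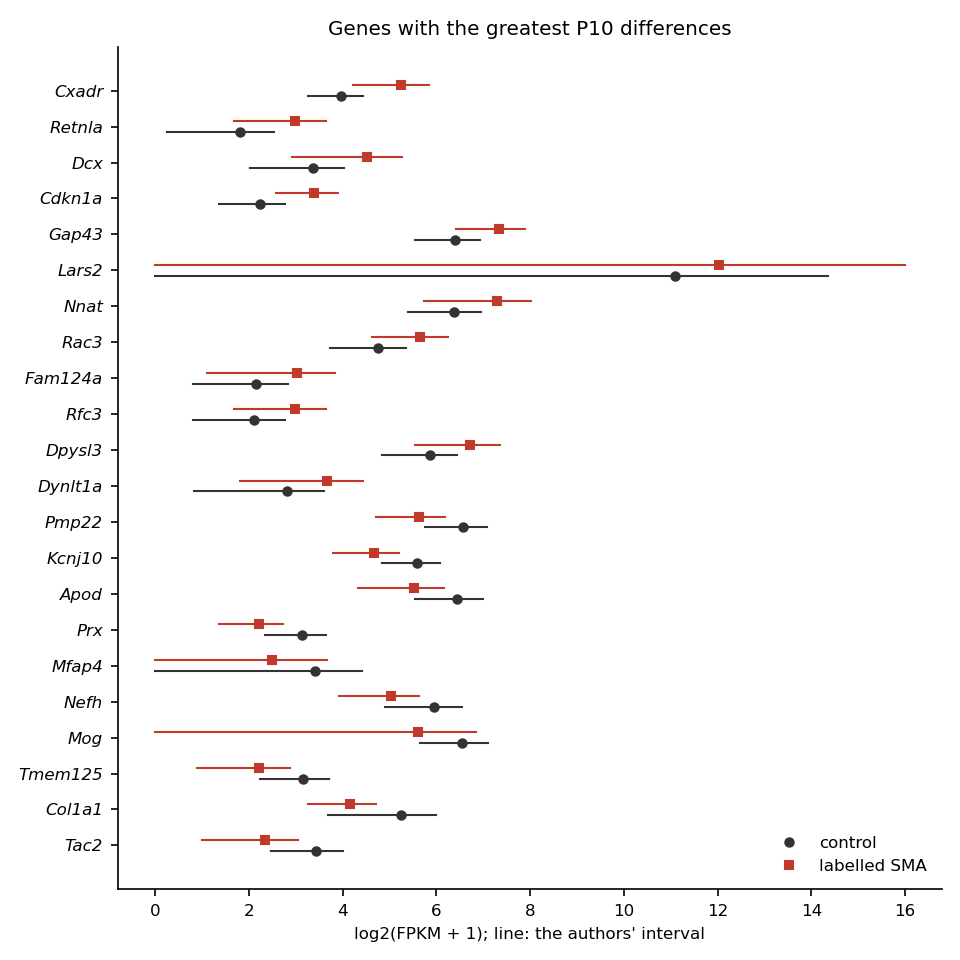
The protein-coding genes named at either extreme of the P10 difference are shown, with log2(FPKM + 1) on the horizontal axis, black circles for control P10, red squares for the group labelled SMA, and lines for the authors' model intervals. In every gene shown the lines of the groups overlap, and that of Lars2 reaches down to 0 in both.

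The P10 difference was then set beside the change that control cords made from P2 to P6, a measure that uses neither P10 group. Protein-coding genes with a unique symbol were binned by that change. The 59 genes that rose at least 2-fold in control from P2 to P6 had a lower value in the group labelled SMA at P10 in 59 cases, and the 59 that fell at least 1.5-fold had a higher value in 50. Over the 7490 genes that changed less than 1.5-fold, 3802 were higher and 3688 lower, with a median of 0.00.

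The size of the P10 difference was graded over the bins. Its median was 0.51 for the 53 genes that fell 1.5-fold to 2-fold, -0.50 for the 147 that rose 1.5-fold to 2-fold, -0.61 for the 49 that rose 2-fold to 4-fold and -0.79 for the 10 that rose at least 4-fold. Among these 10 were Adamts4, Cldn11, Gpr37l1, Mag, Mal, Mbp, Mog, Pdlim2 and Ugt8a. The smallest bin stood apart, since 4 of its 6 genes are the Y-linked Ddx3y, Eif2s3y, Kdm5d and Uty; with them its median was -0.73.

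**Figure D5:**
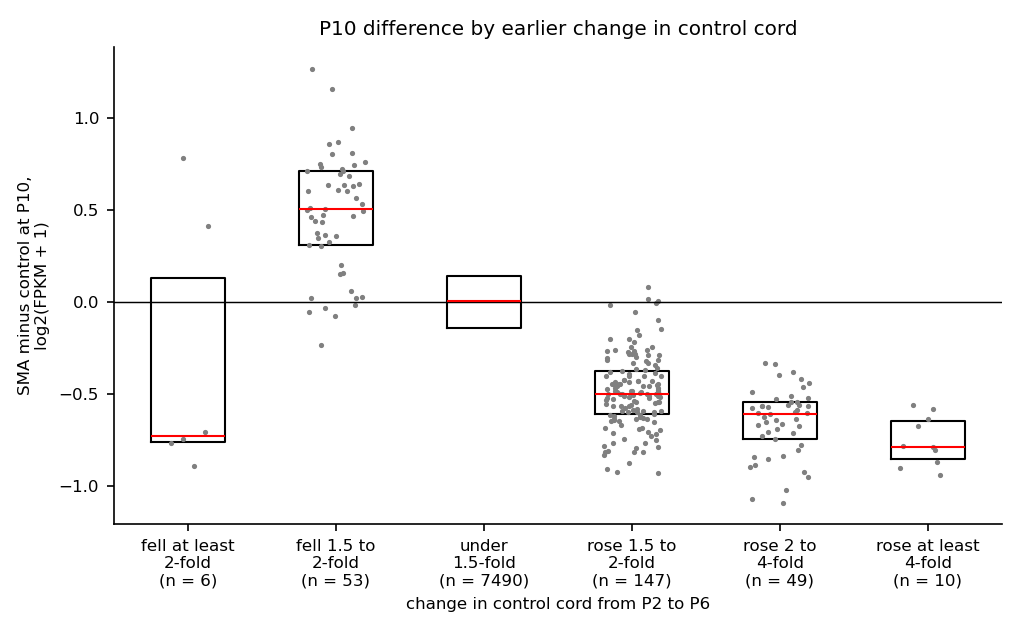
Protein-coding genes are grouped on the horizontal axis by their change from P2 to P6 in control cords, with log2((SMA + 1)/(control + 1)) at P10 on the vertical axis. Boxes span the quartiles, red lines mark medians, and points are genes, left out for the bin of 7490. Medians go from 0.51 in the bin that fell 1.5-fold to 2-fold to -0.79 in the bin that rose at least 4-fold, and the bin at the far left holds 6 genes, 4 of them Y-linked.

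The difference between the labelled groups did not have the same form at the other ages. The myelin list had a median of 1.78 in the P2 cords, where 34 of 34 genes had a higher value in SMA. The median was 0.16 in P6 cords and -0.62 in P10 cords. Its summed FPKM in control cords was 525, 2406 and 9251 at P2, P6 and P10, and in SMA-labelled cords 4322, 2711 and 5283. Immature neuron genes had medians of -0.33, 0.08 and 0.53 in the same order of ages. The myelin sum of the SMA cords at P2 was above that of both P6 groups. Whether each library is of its labelled age and genotype was not tested, so differences between ages are differences between labelled groups.

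Other lists followed other courses. Fibroblast and meninges genes had medians of -0.06, 0.20 and -0.59 in order of age, and erythroid genes -0.28, -0.04 and -0.57. Across 7831 protein-coding genes the P10 difference had a Pearson correlation of -0.595 with the P2 difference, given as a description; the 2 ages share no libraries, but genes are not independent and both were processed together. The standard deviation of the difference over these genes was 0.305 in the P2 comparison, 0.159 in the P6 comparison and 0.249 in the P10 comparison.

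A z test with the same intervals asked whether the ratio itself differed between ages. From P2 to P10 the ratio of SMA to control changed in 12 of 20916 loci (0.0574%, adjusted by Benjamini-Hochberg, 187 at an unadjusted p under 0.05). Of these 12, 10 fell, among them Mal, a lipid raft protein of myelin, by 4.48 on the log2 scale (SE 0.84 from the authors' intervals, adjusted p = 0.000422), and Ermn, a cytoskeletal protein of oligodendrocytes, fell by 4.91 (SE 0.93). From P6 to P10 it changed in 4 of 21038 loci (0.019%; 27 at an unadjusted p under 0.05), none of them protein-coding.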

How the data were processed

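Total RNA of whole cords was sequenced in 18 libraries, 3 in each of 6 groups. Per the submitters' processing notes, the tools were Cufflinks 2.2.1, Cuffdiff, TopHat2 2.1.1, Bowtie2 2.2.4, FastQC and Picard and the build GRCm38; the annotation, strand setting and normalization are not given in the sources used here. FPKM and its model interval are the authors' deposited values, 1 per locus and group. The deposited expected counts are fragments estimated by the authors' Cuffdiff run, with a count variance, an authors' score in squared fragments. They totalled 7386338 in the group labelled SMA and 7323520 in control at P10 and are scaled, so the depth of single libraries is unknown.

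Of 58570 loci, 46504 had 1 symbol, 1508 joined symbols, 10535 no symbol and 23 a symbol turned into a date. Gene types and coordinates came from GENCODE M21 by symbol and overlap (97.7% matched), promoters from RefSeq. The 196 members sharing a symbol stayed out of the lists. Differences are log2 ratios of FPKM with a pseudocount of 1; they understate changes of low genes. The z test took loci at FPKM 1 or more in a group and above 0 in both, adjusted by Benjamini-Hochberg. Its standard error came from the upper bound at a 95% level (1.96). It was tried on simulated data with noise drawn from that same standard error and with large added changes. That trial does not show how the test behaves on the narrow z values found here. The z test measures the authors' modelled spread, which may be technical. Python 3.11.15, numpy 2.4.6, pandas 2.3.3, scipy 1.17.1, statsmodels 0.14.6 and matplotlib 3.10.9 were used.

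The members and the 58 gene lists (1464 genes, 977 measured; 1 list with under 3 measured) were chosen with earlier results of these data known. Named genes were Smn1, the 12 protein-coding genes at either extreme, nameable called or non-overlapping genes, and in each list the 3 most abundant and the 3 with the largest difference; predicted genes, microRNAs and small nucleolar RNAs were not named except where the closing section must. Mag, Nipal4, Sgms1, Egr2, Sostdc1, Foxd3, Uts2, Chat, Chodl, Acta1, Glra1, Cntn2, Mal, Ermn, the Y-linked genes, the genes of the top age bin and those called between ages were named after their values were seen. Fas, Bbc3, Tnfrsf10b, Gdf15, Lhfpl3, Zfp488, Vcan, Rnu11, Prmt5, Higd1b, Acta2 and Cnn1 were named in the same way. A list was called one-sided where at least 75% of 3 or more genes lay on 1 side. Alternatives tried were other pseudocounts, FPKM filters, centring, counts, the count variance and protein-coding genes alone. A few genes that the rule would name are not reported here.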

Additional observations from a re-analysis of the deposited data

Results flagged for a closer look

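Genes whose SMA to control log2 ratio changed between P10 and another age by the z test (adjusted over all loci tested by Benjamini-Hochberg) are given here, each as the change ± SE from the authors' intervals with the adjusted p in parentheses. Between P2 and P10, 9 protein-coding genes fell, of which 8 are named. Ermn, a cytoskeletal gene of oligodendrocytes, changed by -4.91 ± 0.93 (0.000561), and Sec14l5, a lipid transfer protein homologue, by -4.79 ± 0.96 (0.00229). Mal changed by -4.48 ± 0.84 (0.000422), Nipal4 by -4.40 ± 0.97 (0.0147) and Gsn, the actin-severing gelsolin, by -4.36 ± 0.92 (0.0063). Fa2h, which hydroxylates myelin lipids, changed by -3.94 ± 0.91 (0.0311), Cldn11, the tight junction protein of myelin, by -3.64 ± 0.83 (0.0213) and Scn4b, a sodium channel subunit, by -3.63 ± 0.81 (0.0192). In all 9 the value was higher in SMA cords at P2 and lower in the group labelled SMA at P10.

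Small RNA loci made up the others. Gm25848, a small nucleolar RNA, changed by -3.32 ± 0.59 (0.000113), and the microRNA loci Gm25347 by 0.85 ± 0.10 (1.66e-14) and Gm26268 by 2.40 ± 0.29 (9.48e-13). Between P6 and P10, Dancr changed by -0.86 ± 0.16 and the microRNA locus Gm28010 by 0.94 ± 0.17, both with an adjusted p of 0.00079. The other loci of the 4 called between these ages lie outside the 8833 genes and are not given here. Smn1 was near 0 in SMA cords at P2 and P6 and at 79.8% of control at P10; its part in these changes was not tested.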

How the results depend on the processing

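The P10 counts at 1.5-fold, 168 higher and 244 lower, became 91 and 123 with a pseudocount of 5, 424 and 448 at FPKM 1 or more, 64 and 104 at FPKM 20 or more, 502 and 513 with no filter, 80 and 156 for protein-coding genes alone and 62 and 71 at 2-fold. From estimated counts they were 120 and 268. None of the 21 one-sided lists changed the sign of its median under the alternatives run, where 3 or more genes were left. One of these alternatives (FPKM of 5 or more in each group) was chosen after seeing the data. Sign changes of the other lists were not counted, and some medians near 0 did change. From estimated counts the median was -0.003 in place of 0.02 for microglia and -0.13 in place of 0.05 for Notch and Hes genes. For the 295 named genes, sign changes were counted only in those past 1.5-fold, and 1 changed: Dancr was 0.15 from estimated counts.

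The z test at P10 called 8 loci, and 0 with the count variance (29 at an unadjusted p under 0.05), 0 over protein-coding genes alone (15 unadjusted) and 16 where the test was replaced by a count of non-overlapping intervals among the loci it covers, which leaves out loci at 0 in a group. The P10 against P6 test called 4, and 0 with the count variance (16 unadjusted) or protein-coding genes alone (10 unadjusted). The P10 against P2 test called 12, and 23 with the count variance and 20 at FPKM 5 or more. The cause was not tested. No paired analysis was possible because the columns carry group values without replicate numbers, and for the same reason no replicate could be left out. Values per library were not analysed here, so the spread between animals is unknown.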
